A study of Rattus norvegicus with 50 samples.

Results

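Hippocampal gene expression was compared between MONW-Lep and NW rats, the pair of groups that differ in both neonatal leptin and later diet. The MONW-Lep rats (n = 9, numbered 1 to 8 and 10 in the labels) were male Wistar rats given recombinant murine leptin by mouth from day 1 to day 20 of life, and then 11 weeks of a chow in which fat made up 60% of calories, in amounts matched to the energy intake of the controls. The NW rats (n = 8, numbered 1 to 8) were male Wistar rats given the vehicle by mouth on the same days, and then a chow with fat at 10% of calories, eaten freely. The MONW rats (n = 8) received the vehicle and then the same high-fat chow as MONW-Lep. All rats were housed singly after weaning and were 3.5 months old when the hippocampus was taken. MONW-Lep versus NW differs in leptin and in diet at once, and only the MONW arrays separate these, since no group received leptin with the low-fat diet. The rats came from several litters, and the labels do not say which rats were littermates. The p values treat each rat as a separate animal.

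Of the 50 arrays of the series, 17 belong to this comparison, with 1 array per rat, and the 8 MONW hippocampus arrays entered the fit through the shared variance. One of these, MONW array 7, stood apart, with a median correlation of 0.978 with the other hippocampus arrays, while those of the MONW-Lep and NW arrays lay between 0.988 and 0.991. The arrays were Affymetrix Rat Clariom S, which read each gene through a set of probes, its transcript cluster. The deposited values are log2 signals, so a difference of 1 is a doubling. Of 15049 clusters with a gene symbol, 3943 (26.2%) had a mean signal over the 25 hippocampus arrays above 8.33 on the log2 scale. That limit is the signal exceeded by 5% of the 1153 negative control probes of the array, averaged over the arrays, and the genes over it are called here genes above the negative controls. Just under the limit were *Mtrex*, *Mta2* and *Dnajb11*, all at 8.32 or 8.33, and just over it *Spata2*, *Igf2bp1* and *Mpp3*, all at 8.33. The description below is about the genes above the limit, since a signal under it is in the range of probes that match no rat transcript.

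The hippocampus holds the granule cells of the dentate gyrus and the pyramidal cells of the CA fields, with interneurons, glia and vessels around them, and it is needed for spatial and working memory. Leptin is a hormone of fat tissue and milk that acts through a receptor of the cytokine family and the STAT3 pathway, and in the first weeks of rodent life it is known to promote the growth of neuronal connections. A diet rich in fat is known to alter insulin signaling, synaptic plasticity and the blood-brain barrier in this region.

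The tissue label was checked against 7 markers of hippocampal neurons. Above the limit were *Camk2a*, *Grin1*, *Slc17a7*, *Gad1*, *Wfs1* and *Neurod6*. *Prox1*, the granule cell factor, was at 8.20 ± 0.17 in MONW-Lep and 8.30 ± 0.16 in NW (SD), just under the limit. None of the 7 passed the threshold of an unadjusted p under 0.05, and *Camk2a*, the kinase of long-term potentiation, was at 12.8 ± 0.07 in MONW-Lep and 12.8 ± 0.08 in NW, with a 95% interval of the difference from -0.15 to 0.12.

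Few hippocampal genes passed the threshold between MONW-Lep and NW rats, and the differences of those that did were small. Of the 3943 genes above the negative controls, 20 (0.507%) passed an unadjusted p under 0.05 in limma, the threshold the study used. Of these, 12 (0.304%) were higher and 8 (0.203%) lower in MONW-Lep. The higher genes included *Hdgfl3*, *Tfpi*, *Rbm3* and *Cldn5*, and the lower ones *Abhd3*, *Rgs8*, *Hsdl2* and *Zfand3*. Fold changes lay between 1.08 and 1.16 for the higher genes and between -1.08 and -1.16 for the lower ones. With no true difference, about 1 in 20 genes would be expected to pass this threshold, a larger share than the 0.507% seen. The share seen also depended on how the fit moderated the variances, as given below. The 20 genes are therefore not read as established differences. After Benjamini-Hochberg adjustment over all 15049 genes 0 passed in limma, and the smallest adjusted p among genes above the limit was 1.00. By the exact two-sided permutation test of single genes, 16 of the 20 had a p under 0.05 and the other 4 (*Ppm1k*, *Adgrb1*, *Rbm3* and *Rgs8*) a p between 0.0547 and 0.0672. The 20 were chosen on the same arrays, so these permutation p values are not independent evidence. In none of the 3943 genes were all MONW-Lep arrays on one side of all NW arrays.

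**Figure D1:**
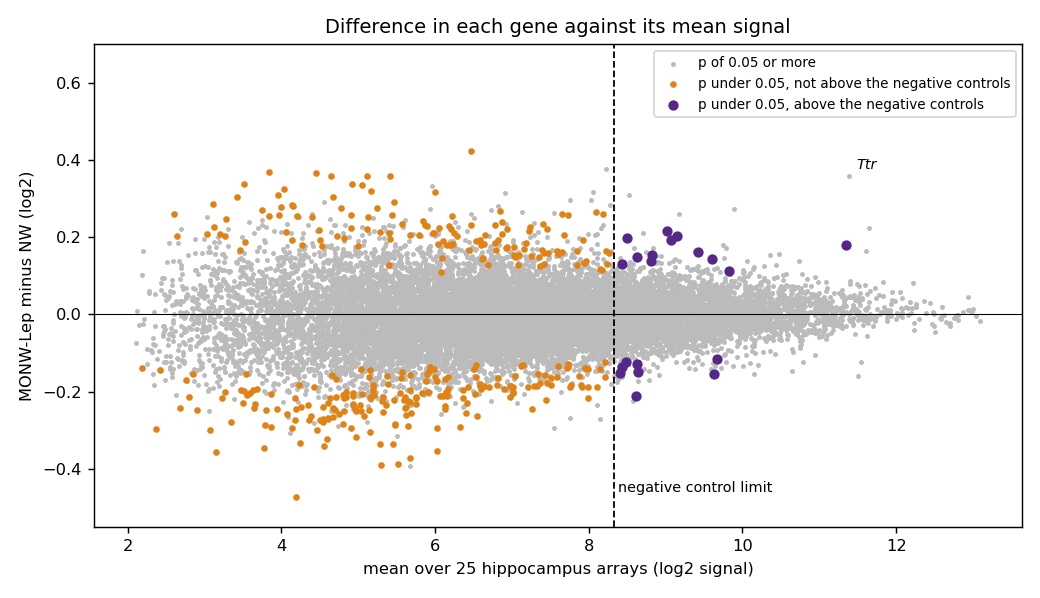
Each point is 1 of 15049 genes, with the mean log2 signal over 25 hippocampus arrays on the horizontal axis and the log2 difference MONW-Lep minus NW on the vertical axis. The 20 genes past the threshold above the negative controls (violet) lie within a log2 difference of 0.22 in either direction, while 332 genes past it (orange) lie left of the dashed limit at 8.33.

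The arrays were precise enough to bound most differences. The median absolute difference over the genes above the limit was 0.03 on the log2 scale, the 95th percentile 0.10 and the 99th percentile 0.15. The 95% interval of a gene's difference had a median width of 0.14 on either side. For 3450 of the 3943 genes (87.5%) this interval lay wholly inside a change of 1.2-fold in either direction. Signs were balanced, with 1982 genes (50.3%) having the higher mean in MONW-Lep. Group membership accounted for 1.70% of the variance of the median gene over the 17 arrays. Any split of the arrays accounts for some variance, so this share is not read as a group effect.

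The share of genes past the threshold depended on the signal level. It was 5.34% of the 880 genes with a mean of at most 4 and 5.02% of the 1315 genes between 4 and 5. It was 1.78% of the 3981 genes between 7 and the limit, 0.683% of the 1611 genes between the limit and 9, and 0.110% of the 907 genes over 10. Low signals were also noisier, with a median SD among MONW-Lep arrays of 0.21 in the lowest class and 0.10 in the highest, and among NW arrays of 0.21 and 0.12. The fit moderated the variances of all genes toward 1 value at every level, and the shares hold for that fit only. Above the limit, 32 genes passed with trend and robust moderation and 33 with only genes above the limit fitted, against 20 in the reported fit. At any level, 352 genes (2.34% of all) passed. MONW-Lep was higher for 144 (0.957%) and lower for 208 (1.38%). Of the 352, 332 (94.3%) were not above the negative controls, which is 2.99% of the genes under the limit.

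**Figure D2:**
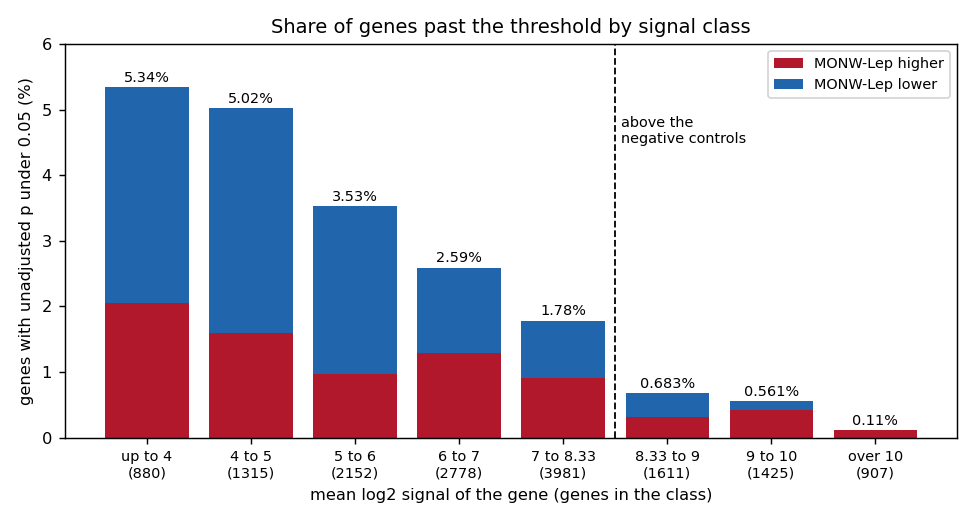
Bars give the percentage of genes with an unadjusted p under 0.05 in each class of mean log2 signal, split into genes higher (red) and lower (blue) in MONW-Lep, with the number of genes in the class under each bar. The share is 5.34% in the lowest class and 0.110% in the highest, and the 3 classes right of the dashed line hold 20 genes past the threshold.

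Chemosensory receptors were a large group among the genes with a low signal. Symbols of olfactory, vomeronasal and taste receptors, families whose known place is the sensory epithelia, covered 1157 of the genes tested, and 0 of them were above the limit. Of these receptors 62 (5.36%) passed the threshold, 21 higher and 41 lower in MONW-Lep. Their median level was 4.15, and of all genes with a mean between 4 and 5 the share was 5.02%, as given above. The only gene of the 15049 whose groups did not overlap (0.00664%) was of this kind. *Or4c107*, an olfactory receptor, had a lowest value of 3.84, a median of 3.98 and a highest of 4.16 in MONW-Lep, and 3.29, 3.62 and 3.82 in NW.

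The 20 genes that the study lists for this comparison also had low signals. Of them 19 were among the genes tested here, and their means over the hippocampus arrays ran between 3.15 and 7.45, so that 0 were above the limit. All 19 passed the unadjusted threshold in limma, with MONW-Lep higher for 8 and lower for 11, while after adjustment over all genes 0 passed. The list was chosen on these same arrays, so these counts are not independent evidence of their direction. Among the lower ones were *Vegfd*, a growth factor of lymphatic vessels (-0.18 ± 0.07 SE), and *Tmem144*, a membrane protein (-0.22 ± 0.09 SE). The largest difference among the 19 was that of *Slc5a1*, a sodium-glucose cotransporter, which averaged 3.98 ± 0.39 in MONW-Lep and 4.46 ± 0.36 in NW (SD).

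Among genes above the limit, the smallest p belonged to *Abhd3*, which in mice cleaves phosphatidylcholines with medium-chain acyl groups. Its signal had a lowest value of 8.39, a median of 8.47 and a highest of 8.62 in MONW-Lep, against 8.52, 8.69 and 8.95 in NW. All 9 MONW-Lep arrays were under the NW median and 6 of them under every NW array. The log2 difference was -0.21 ± 0.05 (SE), with an unadjusted p of 0.00064 in limma and an exact two-sided permutation p of 0.00144.

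*Hdgfl3*, a chromatin-binding protein of the hepatoma-derived growth factor family that is found in neurons, had the largest difference among the higher genes. Its signal ran over 8.93, 9.12 and 9.28 (lowest, median and highest) in MONW-Lep and over 8.64, 8.88 and 9.06 in NW. All 9 MONW-Lep arrays lay over the NW median and 6 of them over every NW array. The log2 difference was 0.21 ± 0.07 (SE), a 1.16-fold change, with p = 0.00347 in limma and an exact permutation p of 0.00226.

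*Zfand3*, a protein with zinc fingers of the A20 and AN1 types, was at 8.48, 8.59 and 8.68 in MONW-Lep and at 8.56, 8.74 and 8.90 in NW. All 9 MONW-Lep arrays were under the NW median, and 2 were under every NW array. The log2 difference was -0.15 ± 0.06 (SE; p = 0.0117 in limma, exact permutation p = 0.00226). *Abhd3*, *Hdgfl3*, *Zfand3* and *Tfpi* were the only 4 of the 20 genes that passed the threshold in each of the 17 fits that left out 1 MONW-Lep or NW array. They also had the 4 smallest p in limma of the 20. The fits reuse the arrays on which the genes were chosen, so they are not independent evidence.

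**Figure D3:**
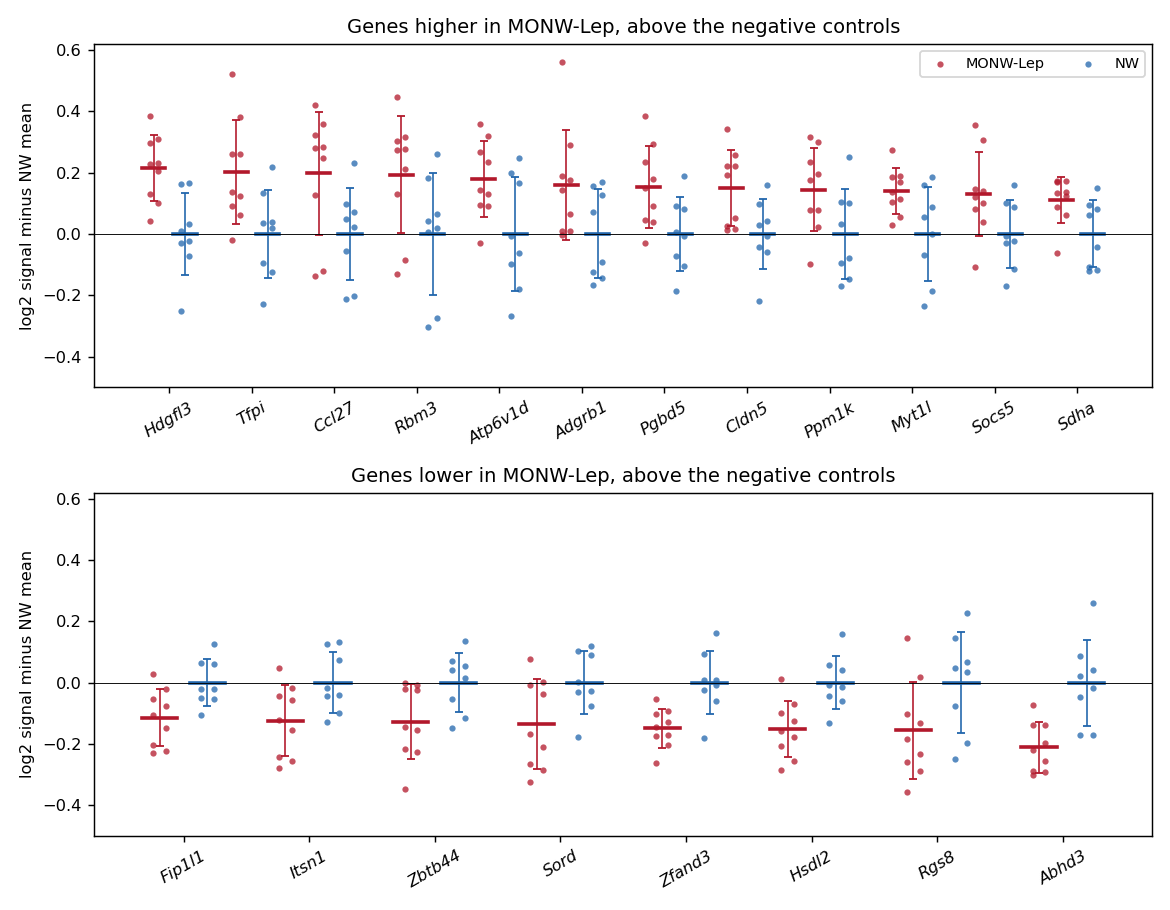
Log2 signal of each array minus the NW mean for the 12 genes higher in MONW-Lep (top) and the 8 genes lower in MONW-Lep (bottom), with MONW-Lep (red) left of NW (blue), bars at the group means and whiskers of 1 SD (n = 9 and 8). The arrays of both groups overlap in every gene, and the means differ by at most 0.21 in either direction.

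*Tfpi*, the inhibitor of the tissue factor pathway of coagulation that endothelial cells make, had values of 9.04, 9.20 and 9.59 (lowest, median and highest) in MONW-Lep and 8.83, 9.09 and 9.28 in NW. It differed by 0.20 ± 0.08 (SE; p = 0.0150 in limma, exact permutation p = 0.0185), with 8 of 9 MONW-Lep arrays over the NW median. *Cldn5*, the main claudin of the tight junctions of the blood-brain barrier, had values of 8.59, 8.77 and 8.92 in MONW-Lep and 8.36, 8.59 and 8.74 in NW.

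All 9 MONW-Lep arrays lay over the NW median of *Cldn5*. The difference was 0.15 ± 0.07 (SE; p = 0.0317 in limma, exact permutation p = 0.0206), and it passed in 11 of the 17 fits with 1 array left out. In whole hippocampus, more cells of a type and more RNA per cell cannot be told apart. *Tek*, the angiopoietin receptor of endothelial cells, was not above the negative controls, averaging 7.56 ± 0.17 in MONW-Lep and 7.32 ± 0.16 in NW (SD), and its difference of 0.23 had an exact permutation p of 0.00934. Of the endothelial and mural cell list, 36 of 39 members were measured and 8 were above the limit. Of these 8, 1 passed (*Cldn5*), 6 had the higher mean in MONW-Lep and the median difference was 0.05, against 0.00 over all genes above the limit. The glucose transporter *Slc2a1* (0.07), the membrane protein *Itm2a* (0.07) and the smooth muscle actin *Acta2* (0.11) did not pass. Of 7 genes of VEGF, angiopoietin and Notch signaling above the limit 0 passed, and their median was -0.04. Of the 21 members of that list under the limit, *Tek* passed as higher and *Vegfd* as lower in MONW-Lep.

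*Sdha*, the flavoprotein subunit of succinate dehydrogenase, averaged 9.87 ± 0.07 in MONW-Lep and 9.76 ± 0.11 in NW (SD; log2 difference 0.11, exact permutation p = 0.0281). *Ppm1k*, the mitochondrial phosphatase that activates the breakdown of branched-chain keto acids, averaged 9.70 ± 0.14 in MONW-Lep and 9.56 ± 0.15 in NW (0.14, exact p = 0.0547). *Hsdl2*, a short-chain dehydrogenase of peroxisomes and mitochondria, was lower. It averaged 8.31 ± 0.09 in MONW-Lep and 8.46 ± 0.09 in NW (-0.15, exact p = 0.00378), with 5 of 9 MONW-Lep arrays under every NW array. *Sord*, the sorbitol dehydrogenase of the polyol pathway, averaged 8.35 ± 0.15 in MONW-Lep and 8.49 ± 0.10 in NW (-0.14, exact p = 0.0480).

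*Sdha* was alone among its complexes. Of 38 measured subunits of the respiratory chain and ATP synthase above the limit, 1 passed, 20 had the higher mean in MONW-Lep and the median difference was 0.00, with a range between -0.08 (*Ndufs8*) and 0.11 (*Sdha*). Of 23 genes of glucose transport and glycolysis above the limit 0 passed, and the median was 0.03. The largest difference there was that of the triose isomerase *Tpi1* (0.09). Among 9 genes of fatty acid oxidation above the limit 0 passed, and the coactivator *Ppargc1a*, which drives mitochondrial gene expression, averaged 8.93 ± 0.13 in MONW-Lep and 8.80 ± 0.13 in NW (SD), with an interval of the difference from -0.005 to 0.27. Of 14 genes of lipid transport and storage 0 passed. Of 15 genes of cholesterol and fatty acid synthesis 0 passed too, and both medians were within 0.03 of 0.

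*Atp6v1d*, a subunit of the proton pump that acidifies synaptic vesicles and lysosomes, averaged 11.5 ± 0.13 in MONW-Lep and 11.3 ± 0.19 in NW (SD; 0.18, exact p = 0.0346), and it was the only gene with a mean over 10 that passed. *Adgrb1*, an adhesion receptor of synapses and of phagocytic glia, averaged 9.49 ± 0.18 in MONW-Lep and 9.33 ± 0.15 in NW (0.16, exact p = 0.0582). *Rgs8*, which speeds the shut-off of G proteins of the Gi and Go type, was lower. It averaged 9.51 ± 0.16 in MONW-Lep and 9.67 ± 0.16 in NW (-0.16, exact p = 0.0672). *Itsn1*, a scaffold of endocytosis, averaged 8.43 ± 0.12 in MONW-Lep and 8.56 ± 0.10 in NW (-0.12, exact p = 0.0336).

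Lists of synaptic genes held no member past the threshold. Of 22 glutamate and GABA receptor genes above the limit 0 passed, with a median of 0.01 and a range between -0.05 (*Grik4*) and 0.11 (*Gabra3*). The obligatory NMDA receptor subunit *Grin1* averaged 10.1 ± 0.10 in MONW-Lep and 10.1 ± 0.10 in NW (SD), with an interval of the difference from -0.07 to 0.17. Of 26 presynaptic genes 0 passed (median 0.02), and of 27 genes of axon growth and guidance 0 passed (median 0.02). Among 27 postsynaptic genes 0 passed (median 0.01). One of them, the calcium-dependent kinase subunit *Camk2d*, had a difference of 0.31 with a wide spread, at 8.63 ± 0.33 in MONW-Lep and 8.32 ± 0.44 in NW (exact p = 0.120). Of 18 potassium channel genes 0 passed, and the channel-binding calcium sensor *Kcnip3* was at 11.7 ± 0.14 in MONW-Lep and 11.5 ± 0.16 in NW (interval of the difference from -0.03 to 0.36).

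*Rbm3*, an RNA-binding protein induced by cold that protects synapses in mice, had values of 8.82, 9.22 and 9.40 (lowest, median and highest) in MONW-Lep and of 8.65, 8.98 and 9.21 in NW. Its difference was 0.19 ± 0.08 (SE; p = 0.0286 in limma, exact permutation p = 0.0595), with 7 of 9 MONW-Lep arrays over the NW median. *Myt1l*, a neuronal repressor of non-neuronal genes, averaged 8.88 ± 0.07 in MONW-Lep and 8.74 ± 0.15 in NW (SD; 0.14, exact p = 0.0266), and all 9 MONW-Lep arrays were over the NW median.

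*Fip1l1*, a factor of messenger RNA polyadenylation, averaged 9.61 ± 0.09 in MONW-Lep and 9.72 ± 0.08 in NW (-0.11, exact p = 0.0155). *Zbtb44*, a zinc finger protein, was lower by 0.13, and *Pgbd5*, which derives from a transposase and is expressed in brain, was higher by 0.15. *Ccl27*, a chemokine known from skin, was higher by 0.20, and 6 of 9 MONW-Lep arrays were over every NW array. *Socs5*, a member of the suppressors of cytokine signaling, averaged 8.46 ± 0.14 in MONW-Lep and 8.33 ± 0.11 in NW (SD; 0.13, exact p = 0.0497).

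Genes of leptin and insulin signaling did not pass. Of 39 listed, 35 were measured and 16 were above the limit. Of these 16, 0 passed, 8 had the higher mean in MONW-Lep, and the median difference was 0.00. *Stat3*, the transcription factor downstream of the leptin receptor, averaged 8.47 ± 0.11 in MONW-Lep and 8.48 ± 0.16 in NW (SD), with an interval from -0.14 to 0.12. *Akt1*, the kinase downstream of the insulin receptor, averaged 10.1 ± 0.07 in MONW-Lep and 10.1 ± 0.08 in NW, with an interval from -0.10 to 0.10. The insulin receptor substrate *Irs2* was at 8.31 ± 0.17 in MONW-Lep and 8.43 ± 0.11 in NW (interval of the difference from -0.28 to 0.04). The leptin receptor gene *Lepr* was not analysed here, since no cluster carried its symbol.

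Glia, cell types and stress responses were read in the same way. Of 15 myelin and oligodendrocyte genes above the limit 0 passed and the median was 0.03, and myelin basic protein, *Mbp*, averaged 12.2 ± 0.05 in MONW-Lep and 12.2 ± 0.13 in NW (SD). Of 17 astrocyte genes 0 passed and 5 had the higher mean in MONW-Lep, with a median of -0.03. Of 19 genes of the heat shock and unfolded protein response 0 passed and 3 had the higher mean in MONW-Lep. Their median was also -0.03, and the chaperone *Hsp90b1* was at 10.9 ± 0.10 in MONW-Lep and 11.0 ± 0.12 in NW (interval of the difference from -0.22 to 0.01). Over the 26 lists with 5 or more members above the limit, medians lay between -0.06 and 0.05. Of the 37 lists, 35 had no member above the limit that passed. In all, 429 distinct list members were above the limit and 2 of them passed, *Cldn5* and *Sdha*.

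**Figure D4:**
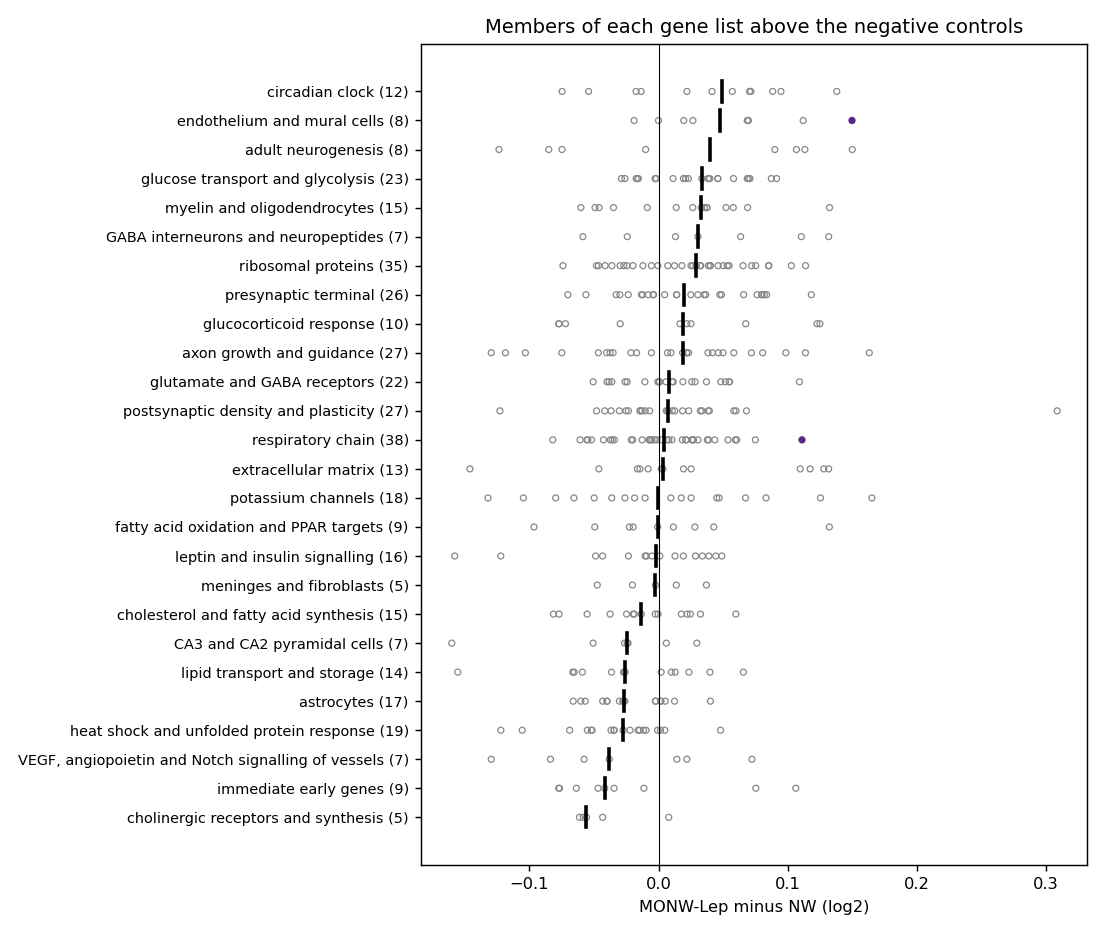
Log2 difference MONW-Lep minus NW of each list member above the negative controls (circles, filled violet where the unadjusted p is under 0.05), with the list median as a black bar and the number of members in brackets, for the 26 lists with 5 or more such members. Medians lie between -0.06 and 0.05, and the filled members are *Cldn5* and *Sdha*.

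*Ttr*, a gene of the choroid plexus, had the largest difference of means among genes above the limit and also the largest spread. Its product, transthyretin, is secreted by the choroid plexus. It had a lowest value of 8.84, a median of 12.997 and a highest of 13.25 in MONW-Lep, against 8.32, 12.25 and 13.30 in NW. In both groups 3 arrays were under 10 (numbers 1, 2 and 7 in MONW-Lep, and 3, 6 and 7 in NW) and all others were over 12. The difference of 0.36 had an exact permutation p of 0.682. All 4 choroid plexus genes above the limit (*Ttr*, *Enpp2*, *Sostdc1* and *Igf2*) had the higher mean in MONW-Lep, with a median of 0.17, and 0 passed. Their mean signal ran between 8.57 and 11.5 in MONW-Lep arrays and between 8.44 and 11.7 in NW arrays. The 4 hemoglobin genes of the list of blood cells ran between 9.18 and 10.5 in MONW-Lep and between 9.53 and 10.2 in NW, and 0 passed. Their part in the 20 genes was not tested.

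Markers of neighbouring regions and tissues did not pass above the limit (0 of 3 genes of thalamus and habenula, 0 of 2 of striatum and 0 of 5 of meninges and fibroblasts), but 2 genes of the habenula were high in a single NW array. *Chrna3*, a nicotinic receptor subunit, and *Gpr151*, a receptor marking habenular neurons, were not above the negative controls and both passed as lower in MONW-Lep, by 0.37 and 0.26. NW array 8 was at 7.17 for *Chrna3*, while the other NW arrays had at most 5.78 and MONW-Lep arrays between 5.11 and 5.81. The same array was at 6.85 for *Gpr151*, while the MONW-Lep arrays lay between 5.35 and 5.86. Without NW array 8 the differences were -0.18 and -0.11, and neither passed in limma. A further gene of the habenula list, the nicotinic subunit *Chrnb4*, was at 7.518 in NW array 8 and 7.497 in NW array 6, and it averaged 7.21 ± 0.17 in MONW-Lep and 7.16 ± 0.26 in NW (SD).

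The 20 genes were also read in the MONW rats, which ate the high-fat diet without leptin. MONW-Lep versus NW shares its NW arrays with MONW versus NW and its MONW-Lep arrays with MONW-Lep versus MONW, so the values are given side by side only. In MONW versus NW, 68 genes above the limit (1.72%) passed the threshold, 54 higher (1.37%) and 14 lower (0.355%) in MONW. In MONW-Lep versus MONW, 60 genes (1.52%) passed, and 7 of the 20 were among them. Since the 20 were chosen on the same MONW-Lep arrays, nothing is read from that count. *Abhd3* averaged 8.48 ± 0.08 in MONW-Lep, 8.69 ± 0.05 in MONW and 8.69 ± 0.14 in NW (SD), and MONW-Lep differed from MONW by -0.21 ± 0.05 (SE). *Rgs8* (-0.23), *Ppm1k* (0.17), *Cldn5* (0.17), *Tfpi* (0.18), *Atp6v1d* (0.18) and *Sord* (-0.13) also passed against MONW. In MONW versus NW these 7 genes differed by between -0.03 and 0.07. Passing against both NW and MONW favours genes whose MONW mean is near the NW mean, so nothing is read from this range.

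*Hdgfl3*, *Zfand3* and *Socs5* passed in MONW versus NW as well, in the same direction. *Zfand3* differed by -0.15 in MONW-Lep versus NW and by -0.15 in MONW versus NW, and *Hdgfl3* by 0.21 and by 0.16. *Socs5* differed by 0.13 in MONW-Lep and by 0.20 in MONW. Between MONW-Lep and MONW the differences of these 3 genes did not pass, at 0.06 ± 0.07 for *Hdgfl3*, 0.00 ± 0.06 for *Zfand3* and -0.07 ± 0.06 for *Socs5* (SE). The other 10 genes passed in neither of these comparisons.

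In peripheral blood mononuclear cells (PBMC) of the same rats, 0 of the 20 genes passed in MONW-Lep versus NW, against 4.49% of the 3943 genes in that tissue. The sign was the same in both tissues for 10 of the 20. *Abhd3* differed by -0.21 in hippocampus and by 0.21 ± 0.14 (SE) in PBMC. *Hdgfl3* differed by 0.21 in hippocampus and by -0.20 ± 0.16 (SE) in PBMC. The mean PBMC signal was 5.63 for *Abhd3* and 7.34 for *Hdgfl3*. Both means lay under the limit set on the hippocampus arrays, so these PBMC differences rest on low signals. The effects of the tissues differed for 4 of the 20 at an unadjusted p under 0.05, against 2.33% of the 3943 genes, and for 0 after adjustment. The 20 were chosen for their hippocampal difference, which enters this comparison, so the 4 are not read as an excess.

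Arrays of each group varied among themselves, and both groups spread along the same axis. The first component of the deviations from the group means, over genes above the limit, held 30.5% of that variance. Each array was set against its own group mean, so this component could not separate the groups. Along it, all 8 arrays numbered 1 to 4 in both groups lay below 0 (between -6.52 and -1.65) and all 9 arrays numbered 5 to 10 above 0 (between 0.81 and 7.12). The labels do not say what the numbers stand for. The median absolute log2 difference between the number ranges was 0.10, against 0.03 between MONW-Lep and NW. Each of the 20 differences had the same sign within numbers 1 to 4 and within numbers 5 to 10. With these fewer arrays, 5 of the 20 passed in limma within numbers 1 to 4 and 6 within numbers 5 to 10. Sizes differed between the ranges in both directions. They were 0.04 and 0.34 for *Tfpi*, 0.02 and 0.22 for *Socs5*, and 0.26 and 0.08 for *Adgrb1*, with numbers 1 to 4 first. These arrays are the ones on which the genes were chosen.

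**Figure D5:**
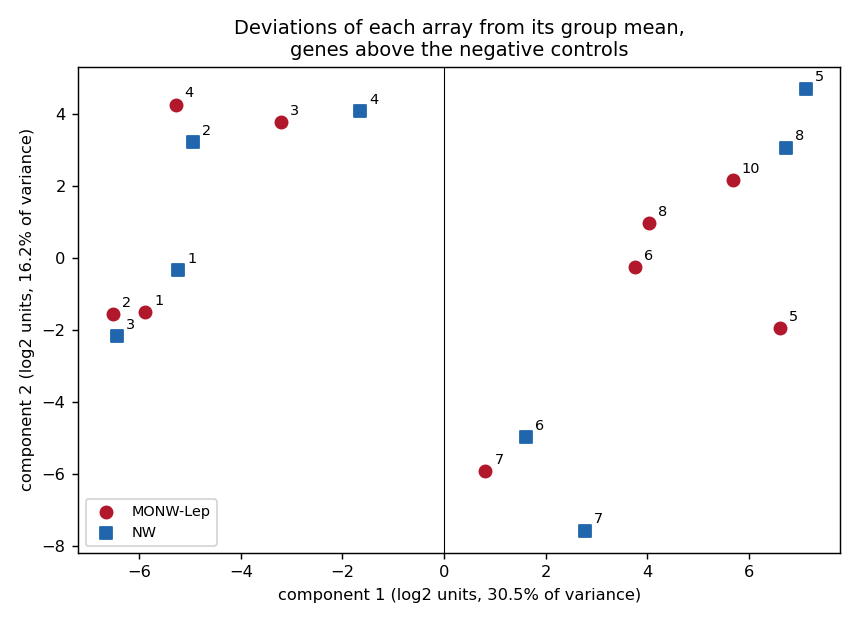
The first 2 components of each array's deviation from its group mean over 3943 genes, in log2 units, for MONW-Lep (red circles) and NW (blue squares), with the number of the rat beside each point. Arrays numbered 1 to 4 of both groups lie left of 0 and arrays numbered 5 to 10 right of 0, along a component that holds 30.5% of the variance within groups.

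The number of genes that pass is small, and it moved with single arrays and settings. It was between 15 and 36 when 1 MONW-Lep or NW array was left out, and 33 without MONW array 7. With only the MONW-Lep and NW arrays fitted, 27 genes passed, and 13 of the 20 were among them. Of the 20 genes, between 9 and 17 passed in each of the fits with 1 array left out. The sign of every one of the 20 was the same in all 27 alternative fits. These fits used the arrays on which the genes were chosen, and some of them cannot change a difference of group means. Nothing is read from that count.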

How the data were processed

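Total RNA of whole hippocampus was hybridized to Rat Clariom S arrays. The authors deposited a log2 value for each transcript cluster and array, from RMA (background correction, quantile normalization, probe summary). R 4.0.4 and limma are named in the submitters' processing notes, and the array annotation was not given in the sources used here. Quantile normalization hides any shift shared by all genes, and no column of values was left unmapped.

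Groups came from the sample titles. Clusters with exactly 1 gene symbol in the platform annotation were kept (15049, all matched to RefSeq names, 15037 distinct symbols), and 8139 without a symbol were used only in an alternative. The 25 hippocampus arrays were fitted with limma 3.58.1 in R 4.3.3 (lmFit, eBayes, no covariates), with p values two-sided and adjusted by Benjamini-Hochberg over all genes. Single genes also had exact permutation tests over 24310 regroupings. PBMC arrays were fitted apart, and tissues were compared on each rat's hippocampus minus PBMC value. The fit was tested on simulated data. The number of arrays limits the precision.

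Named were, among genes above the negative controls with p under 0.05, the 12 largest and the 12 smallest differences, the 10 smallest p, up to 4 members of each list, genes whose groups did not overlap, the study's genes where above the limit, and *Lepr*. Ends of list ranges, *Or4c107*, *Slc5a1*, *Tek*, *Chrna3*, *Gpr151*, *Camk2d*, *Ttr*, other genes that did not pass and those in the closing section were named after their values were seen. Members and the 37 gene lists were chosen with earlier results of these data known. Alternatives changed the arrays fitted, scaling, moderation, array weights, replicate block, clusters fitted and limit. The number range as a covariate was chosen after seeing the data. Figures were drawn with matplotlib.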

Additional observations from a re-analysis of the deposited data

Results flagged for a closer look

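Gaps between the highest or lowest array and the nearest other were checked in each group for 37 genes, 74 groups of arrays in all, and 4 exceeded the critical value of Dixon's test at 95%. Chance flags about 1 in 20 groups. *Ccn3*, *Chrna3* and *Gpr151* were named after their values were seen, so the count cannot be set against that rate. *Sdha* had a lowest MONW-Lep array, number 1, at 9.70. *Ccn3*, a matricellular protein, had a lowest NW array, number 7, at 8.84, and averaged 10.1 ± 0.35 in MONW-Lep and 9.82 ± 0.46 in NW (SD). NW array 8 was the highest NW array for both *Chrna3* (7.17) and *Gpr151* (6.85).

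The difference MONW-Lep minus NW differed between hippocampus and PBMC at an unadjusted p under 0.05 in limma for 4 of the 20 hippocampal genes, against 92 of the 3943 genes above the negative controls (2.33%). Since the 20 genes were chosen for their difference in hippocampus, this count is not independent of that choice. The difference of the effects was -0.42 ± 0.17 (SE) for *Abhd3*, 0.42 ± 0.19 for *Hdgfl3*, -0.20 ± 0.09 for *Zfand3* and 0.23 ± 0.11 for *Adgrb1*. In PBMC the mean signals of *Abhd3* (5.63), *Hdgfl3* (7.34) and *Adgrb1* (6.33) lay under the limit set on the hippocampus arrays. That of *Zfand3* (9.19) lay over it. No adjusted p was under 0.999 for these 4 genes.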

How the results depend on the processing

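Among genes above the negative controls, 12 higher and 8 lower in MONW-Lep in the reported fit, the count of lower genes was 13 with only MONW-Lep and NW arrays fitted and 13 with quantile normalization repeated. The count of higher genes was 21 with trend and robust moderation, 25 with array weights and 21 with only genes above the negative controls fitted. Without MONW array 7 there were 19 higher and 14 lower. With the 99th percentile of the negative controls as the limit, which 439 genes passed, there were 1 higher and 0 lower, since fewer genes were counted. The cause of the other shifts was not tested. With 1 MONW-Lep or NW array left out, higher genes numbered 8 to 26 and lower genes 4 to 14. The higher count was 19 without MONW-Lep 1, 22 without NW 2, 19 without NW 5 and 26 without NW 6. The lower count was 4 without MONW-Lep 1, MONW-Lep 5 or NW 4, 13 without MONW-Lep 4 or NW 7, and 14 without MONW-Lep 7. Over all genes the same fits gave 138 to 193 higher and 183 to 245 lower, and every other setting stayed within 1.5 times the reported counts of 144 and 208.

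The replicate number as a block gave 11 higher and 8 lower genes above the negative controls, and 11 of the 20 genes passed in it. *Tfpi*, *Hsdl2*, *Sdha*, *Itsn1*, *Ppm1k*, *Zbtb44*, *Pgbd5*, *Rgs8* and *Sord* did not pass in it. A fit chosen after seeing the data, with the number range (1 to 4, 5 to 10) as a covariate in place of each number, gave 28 genes, among them all 20. Of 8 pairs of MONW-Lep and NW arrays with the same number, 7 had deviations that correlated above 0.1 (0.0461 to 0.515), and in 3 of the 8 the own number correlated best, so the numbers were not taken as pairs. No list median moved by more than 1 SD of the list's mean signal in any setting run. For many lists this SD was larger than the median itself, so a median could change sign and still stay within it. Low signal is a limit, since 11106 of the 15049 genes were not above the negative controls. The 95% intervals had a median width of 0.14 on either side. For a gene with an interval of that width, a smaller difference cannot be told from 0.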

Other observations

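The genes that varied most among arrays of the same group, above the negative controls, were *Ttr*, *Sostdc1*, *Enpp2*, *Igf2* and *Mdk*, with SDs within groups of 2.01, 1.40, 1.02, 0.88 and 0.78 on the log2 scale. *Ptgds*, the prostaglandin synthase of the meninges (0.69), *Htr2c*, the serotonin receptor of the choroid plexus (0.57), and *Hbb*, a hemoglobin chain (0.52), were also among the 11 most variable genes. Between arrays numbered 1 to 4 and arrays numbered 5 to 10, averaged within MONW-Lep and NW, the largest differences were those of *Sostdc1* (-0.87) and *Ttr* (-0.56), and of *Mgst3* (0.83), *Mt3* (0.65), *Tubb3* (0.63) and *Ptgds* (0.62).

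Among genes above the negative controls with large differences that did not pass in limma was *Rnf182* (-0.22 ± 0.12 SE), a ubiquitin ligase, for which 6 of 9 MONW-Lep arrays lay under every NW array. Its SD was 0.15 in MONW-Lep, 0.41 in MONW and 0.13 in NW, and the exact permutation test of the 17 MONW-Lep and NW arrays gave p = 0.00535. *Tmem132a* (0.21 ± 0.10) and *Rgs4* (0.26 ± 0.25) did not pass in limma either. Among list members under the limit, 16 of 452 passed. *Ctsw* and *Ikzf3*, genes of lymphocytes, were at -0.39 and 0.32, and *Mcm3* and *Cdc6*, both of the pre-replication complex, at 0.36 and -0.21. Of the 8139 clusters without a symbol, 230 (2.83%) passed in a fit of all clusters.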
